A study of Homo sapiens with 6 samples.

Results

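Transcripts of 9 interferon-stimulated genes were examined in U2OS cells, a human osteosarcoma line, by RNA-Seq. The genes were ISG15, IFIT1, IFIT2, IFIT3, MX1, OAS1, IRF1, IRF7 and USP18, chosen by name and matched by symbol to 9 of the 67140 Ensembl genes in the count tables. The libraries came from 3 groups of wild-type cells with 2 libraries each: untreated control cells, cells given 1.5 μg/ml adriamycin (doxorubicin) for 4 h, and cells given 100 μM etoposide for 4 h. Both drugs poison topoisomerase II and leave DNA double-strand breaks, and etoposide served to set adriamycin beside another poison of the same enzyme. All cells grew in the same serum-containing medium, and no group is labelled as given interferon. Nothing in the labels says that the 2 libraries of a group came from separate cultures. The study's caption on transposable element expression calls its 2 replicates per condition technical. A supplementary caption on chromatin folding (Hi-C) uses the same word for cells that were cultured, processed and sequenced independently. Whether the RNA-Seq captions use it in that sense is not stated. Therefore p-values measure the spread between libraries, which may be technical.

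Counts of every listed gene were used for the etoposide libraries, which summed to 21450766 and 14244235. For control and adriamycin, the counts used cover 220 to 292 genes at one end of chromosome 1, and other genes of these groups were not analysed here. ISG15 is the 1 gene of the 9 that lies among the 220 genes of all 6 libraries, which held 59357 to 92794 counts per library. For ISG15 the drugs could therefore be compared with untreated cells. For the other 8 genes, only the level in etoposide-treated cells is described, and nothing is said of a response to the drug. The labels call the cells epithelial. In the etoposide libraries the epithelial markers were mixed. The keratins KRT8 and KRT18 were abundant, and EPCAM and CLDN4 had means of 18.2 and 19.8 TPM (transcripts scaled to the library and to gene length). The epithelial adhesion gene CDH1 had 30 and 20 counts, and KRT19 had 1 and 0. The mesenchymal markers COL1A1, SPARC and VIM were among the highest genes, with mean levels of 1368, 849 and 551 TPM. By contrast, COL1A2 had 5 and 2 counts, and TWIST1 had 0 counts in both libraries. Of 9 blood cell markers, HBB had 0 counts in both libraries and PTPRC had 6 and 6. IL3RA had 64 and 54 counts (6.90 TPM) and ITGAM had 93 and 87 (3.20 TPM), and these made up most of the summed level of the 9, which was 11.7 and 13.3 TPM.

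Interferons are secreted proteins that cells release when sensors detect foreign or misplaced nucleic acid. They bind surface receptors, the JAK kinases then phosphorylate STAT factors, and these join IRF9 to bind the interferon-stimulated response element (ISRE) in the promoters of interferon-stimulated genes. ISG15 encodes a small ubiquitin-like protein that is attached to other proteins and is also secreted. USP18 removes it and also dampens the interferon receptor. IFIT1, IFIT2 and IFIT3 bind foreign RNA or each other, MX1 is a GTPase that blocks viral replication, and OAS1 makes the messenger that activates RNase L. IRF1 and IRF7 are transcription factors of the interferon regulatory factor family. Several of these genes can also be switched on without interferon, for example after DNA damage.

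The promoters are shown because interferon signalling acts on these genes through such elements. Of the 9 genes, 6 had a promoter in the RefSeq table (GRCh38.p14), with 9 annotated starts in all, and IFIT2, IRF7 and USP18 had none. The letters GAAANNGAAA, the core of the ISRE, were searched on both strands of the 300 bases around each start, as were GAAANGAAA, with 1 base less between the repeats, and TTCNNNGAA, the core of the GAS element, known from genes that respond to interferon gamma. Matches may overlap each other. The ISRE core was found in 6 of the 9 promoters, belonging to ISG15, IFIT1, IFIT3 and MX1, and in 3.57% of all 35116 promoters of the table. The shorter spacing was found at IFIT3, MX1 and OAS1 and in 3.12% of all promoters. The GAS core was found at MX1, OAS1 and IRF1 and in 7.66% of all promoters. The genes were chosen as interferon-stimulated and the motifs after these promoters were seen, so setting these shares side by side is no test. A match describes the letters only. In the following stretches, written 5′ to 3′ on the strand of the gene, capitals mark the matched letters. The ISG15 stretch is the whole 250 bases before the start, because ISG15 is the gene compared between groups, and the other stretches reach 20 bases beyond the matches.
ISG15, plus strand, chr1:1013247-1013496: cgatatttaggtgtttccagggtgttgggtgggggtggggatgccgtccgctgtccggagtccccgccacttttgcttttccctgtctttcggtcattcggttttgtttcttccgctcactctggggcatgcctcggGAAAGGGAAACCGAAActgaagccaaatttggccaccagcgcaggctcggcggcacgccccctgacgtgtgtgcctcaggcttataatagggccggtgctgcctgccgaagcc
IFIT1, plus strand, chr10:89392487-89392549: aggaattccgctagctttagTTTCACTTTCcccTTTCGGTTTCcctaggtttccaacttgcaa
IFIT3, plus strand, chr10:89327821-89327904: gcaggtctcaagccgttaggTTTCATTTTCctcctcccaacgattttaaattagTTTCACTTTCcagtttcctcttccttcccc
IRF1, minus strand, chr5:132490869-132490917: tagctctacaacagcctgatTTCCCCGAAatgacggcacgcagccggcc

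In ISG15, 2 overlapping ISRE cores, GAAAGGGAAA and GAAACCGAAA, begin 113 and 107 bases before the start. IFIT1 also holds a pair, read from the other strand, beginning 116 and 103 bases before its start. IRF1 has no ISRE core in the window and holds a GAS core, TTCCCCGAA, beginning 124 bases before its start.

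**Figure D1:**
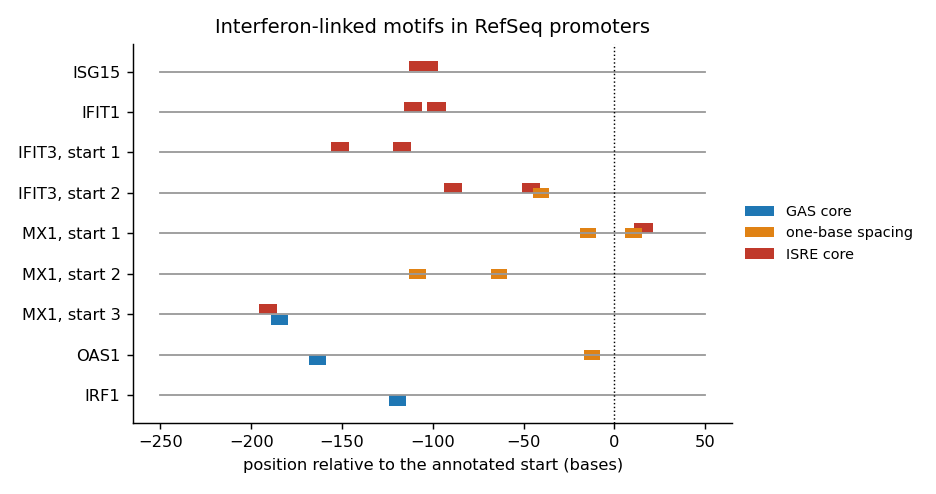
Positions of the searched motifs in the 9 RefSeq promoters of 6 interferon-stimulated genes. The horizontal axis gives the position relative to the annotated start in bases, each grey line is 1 promoter of 300 bases, and colours mark the motif. The ISRE cores of ISG15 and IFIT1 lie at similar distances before the start, and IRF1 holds only a GAS core.

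ISG15 transcripts were more abundant in both drug-treated groups than in untreated cells, by 1.40-fold with etoposide and 1.52-fold with adriamycin. Neither difference reached the 2-fold threshold of the study's methods, so ISG15 was not called in any comparison. ISG15 (ENSG00000187608) lies on the plus strand of chromosome 1 of GRCh38 at bases 1001138 to 1014540. In bulk libraries, a change of its level in every cell and a change in the share of cells that express it cannot be told apart. The control libraries held 264 and 206 counts of ISG15, the etoposide libraries 454 and 305, and the adriamycin libraries 333 and 229. Scaled by TMM over the genes tested, these were 214 and 236 normalized counts in control cells, 307 and 321 in etoposide-treated cells, and 360 and 320 in adriamycin-treated cells. Every treated library was above both control libraries, and the treated groups overlapped each other. Such a separation was common among the 94 genes tested, since 34% of them were higher in both etoposide libraries than in both control libraries and 33% were higher in both adriamycin libraries.

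**Figure D2:**
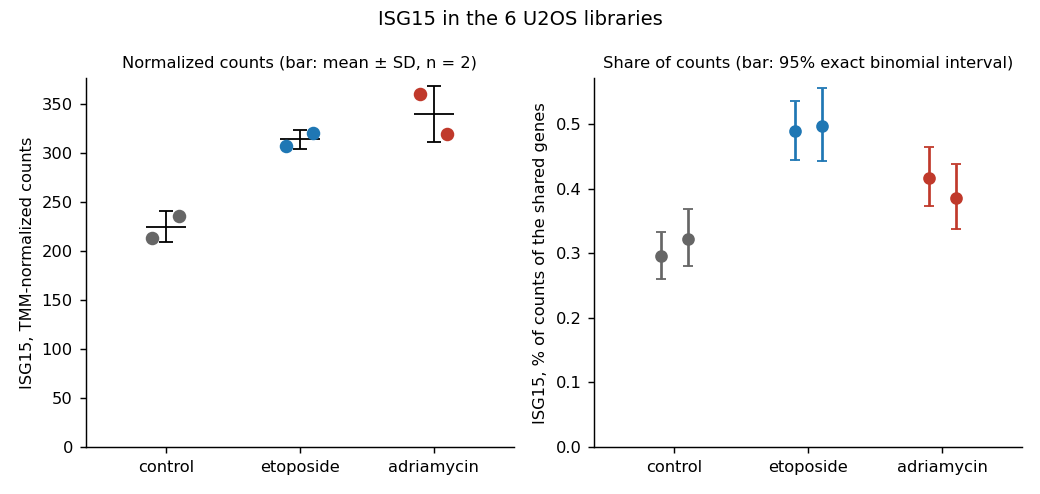
ISG15 in the 6 libraries. Left, TMM-normalized counts by group, with points for libraries and bars for the mean and SD of 2 libraries. Right, ISG15 as a percentage of all counts of the 220 shared genes, with 95% exact binomial intervals for counting error only. Both control libraries lie below all 4 treated libraries in either panel, while etoposide is below adriamycin on average at left and above it at right.

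With etoposide, ISG15 had a mean of 314 ± 9.62 normalized counts against 225 ± 15.9 in control cells (SD, n = 2 in each group). The log2 fold change was 0.48 with a standard error of 0.13 and a 95% interval of 0.22 to 0.75, and the Benjamini-Hochberg adjusted p over the 94 genes was 0.00244 by the quasi-likelihood test of edgeR. It ranked 18th from the top of the 94 genes by fold change, whose median was 0.027. The call, an adjusted p under 0.01 together with a log2 fold change over 1, was made for 2 genes in the higher direction (2.13%) and 3 in the lower (3.19%), and ISG15 was not among them. At an adjusted p under 0.05 with no fold threshold, ISG15 was among 11 higher genes (11.7%). That threshold was missed when 1 library was left out in 3 of 6 cases. The log2 fold change was 0.41 without control replicate 1 (edgeR adjusted p = 0.103), 0.51 without etoposide replicate 1 (edgeR adjusted p = 0.077) and 0.43 without etoposide replicate 2 (edgeR adjusted p = 0.051). In such fits the remaining library of the group is assumed to vary like the libraries of the other groups.

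With adriamycin, ISG15 had a mean of 340 ± 28.5 normalized counts (SD, n = 2). Against control, the log2 fold change was 0.60 with a standard error of 0.14, a 95% interval of 0.33 to 0.88 and an edgeR adjusted p of 0.000133. It ranked 9th from the top of the 94 genes, whose median was −0.072. In the higher direction 1 gene was called (1.06%), which was not ISG15, and 7 were called lower (7.45%). At an adjusted p under 0.05 with no fold threshold, ISG15 was among 21 higher genes (22.3%), and leaving out any 1 library kept its adjusted p under 0.05, at 0.0149 or less by edgeR under the same assumption. The comparisons of etoposide and of adriamycin with control share the control libraries.

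Compared directly, the drugs gave ISG15 levels that could not be separated. The log2 difference of adriamycin against etoposide was 0.12, with a standard error of 0.13, a 95% interval from −0.14 to 0.38 and an edgeR adjusted p of 0.451. Of the 94 genes, 2.13% were called higher and 10.6% lower with adriamycin in this comparison. The sign of this difference depended on the scaling. With library size alone in place of TMM the difference was −0.29 (edgeR adjusted p = 0.0381), and the median of all 94 genes moved from −0.069 to −0.48. AGRN, the next tested gene beyond ISG15 and by far the most abundant of the shared genes, took 28.6% and 29.0% of their counts in the adriamycin libraries and 21.1% to 24.6% in the others. Its part in the reversal was not tested. That scaling moved all genes alike. Taken relative to the median of the tested genes, ISG15 was higher by 0.46 with etoposide than in control cells, by 0.68 with adriamycin than in control cells and by 0.19 with adriamycin than with etoposide under TMM, and these differences moved by less than 0.01 under the other 3 scalings.

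**Figure D3:**
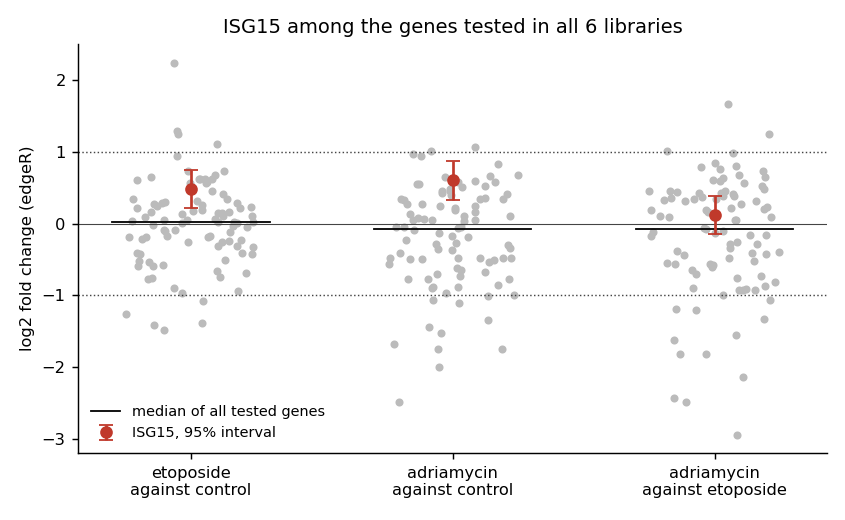
Log2 fold changes of the 94 tested genes in the 3 comparisons. Red points are ISG15 with 95% intervals, grey points the other genes, black lines the median of all genes, and dotted lines the threshold of 1 in either direction. ISG15 lies at 0.48, 0.60 and 0.12, between the dotted lines each time.

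The nearest tested genes on either side of ISG15 had other values. AGRN encodes the matrix protein agrin and begins 5580 bases after the end of ISG15. Its log2 fold change against control was −0.33 with etoposide (edgeR adjusted p = 0.00212), opposite in sign to that of ISG15, and 0.46 with adriamycin, the same in sign. PERM1, a regulator of muscle metabolism that ends 19021 bases before ISG15, had log2 fold changes of −1.26 with etoposide and −0.88 with adriamycin, and neither was called, with edgeR adjusted p of 0.0169 and 0.0917. HES4 lies between PERM1 and ISG15 and had 0 to 4 counts per library, too few to test. The gene whose pattern was nearest to that of ISG15 over the 6 libraries was CCNL2, which encodes a cyclin of RNA splicing. Its log2 normalized counts, centred on their mean, differed from those of ISG15 by 0.070 (root mean square). CCNL2 had 1626 and 1597 normalized counts in control cells, 2067 and 2336 with etoposide, and 2618 and 2414 with adriamycin. NADK, GABRD, MTATP6P1 and SCNN1D followed, with root mean square differences of 0.15 to 0.18. Of these, GABRD had only 18.6 to 37.7 normalized counts per library.

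In etoposide-treated cells, ISG15 had the highest level per length of the 9 genes. By CPM, which does not account for length, IRF1 was higher. Levels between genes were compared per length, as TPM over the union of annotated exons, with the mean of the 2 libraries and their SD. ISG15 had 84.0 and 86.8 TPM in the 2 libraries, a mean of 85.4 ± 1.94 (SD, n = 2), which lies at the 89.9th percentile of the 17584 protein-coding genes with a count. Both libraries also gave nearly the same CPM (counts scaled to the library total), 21.2 and 21.4. The median of all these coding genes was 8.86 TPM, and 7 of the 9 interferon-stimulated genes were below it. USP18 lay close to it, and with the canonical transcript as gene length, described with the order of levels, USP18 was above the median of 8.41 TPM and 6 of the 9 genes were below. Counting intervals of the 2 libraries overlapped for all 9 genes.

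The transcription factor IRF1 (ENSG00000125347, chromosome 5, bases 132440440 to 132508719) was second. It had 976 and 644 counts, 45.5 and 45.2 CPM, and a mean of 12.9 ± 0.129 TPM (SD, n = 2). The libraries were only 1.01-fold apart. Exons of IRF1-AS1 and of another gene on the opposite strand overlap 22.9% of the IRF1 exon bases, and the strand setting of the counting is not given in the sources used here. IRF7 (ENSG00000185507, chromosome 11, bases 612553 to 615983), the factor known for amplifying type I interferon production, had 37 and 45 counts and 2.27 and 4.25 TPM. IRF7 was thus lower than IRF1 in both libraries.

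USP18 (ENSG00000184979, chromosome 22, bases 18150118 to 18177397), the protease that cleaves ISG15 from its targets, came next. It had 187 and 159 counts and 7.33 and 9.57 TPM, under the lower of the IRF1 values in both libraries. The other enzymes of ISG15 conjugation differed widely. The ligase TRIM25 had a mean of 60.5 TPM, the conjugating enzyme UBE2L6 had 36.4 TPM and the activating enzyme UBA7 had 6.88 TPM. ARIH1, a ligase better known from ubiquitin conjugation, had 3.04 TPM. HERC5, the main ligase for ISG15 in human cells, had 16 counts in one etoposide library and 0 in the other, and the intervals of these counts did not overlap.

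The IFIT genes lie side by side on chromosome 10 and were all low. IFIT3 (ENSG00000119917, bases 89327307 to 89377473) had 86 and 80 counts and 2.72 and 3.89 TPM. IFIT1 (ENSG00000185745, bases 89392546 to 89406487) had 59 and 34 counts and 2.05 and 1.82 TPM. IFIT2 (ENSG00000119922, bases 89283694 to 89309271) had 37 and 39 counts and 1.37 and 2.22 TPM. The IFIT3 values lay above those of the other two genes, while IFIT1 and IFIT2 overlapped. IFIT5, of the same family and cluster, was higher, with 854 and 604 counts and a mean of 32.7 TPM. Exons of another gene on the same strand overlap 12.1% of the IFIT2 exon bases, so its counts are less certain.

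OAS1 (ENSG00000089127, chromosome 12, bases 112905856 to 112933219) and MX1 (ENSG00000157601, chromosome 21, bases 41420020 to 41470071) were the lowest of the 9 genes. OAS1 had 46 and 27 counts, or 2.14 and 1.90 CPM. MX1 had 31 and 7 counts, or 1.45 CPM with an exact Poisson interval of 0.982 to 2.05 in the first library and 0.491 CPM with an interval of 0.198 to 1.01 in the second. The MX1 libraries were 2.94-fold apart, the widest gap of the 9 genes, and their intervals met only at the edge. Intervals cover counting error only. The paralogs did not share a level: OAS3 had 1811 and 1467 counts, OAS2 had 14 and 5, OASL had 36 and 23, and MX2 had 15 and 9.

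**Figure D4:**
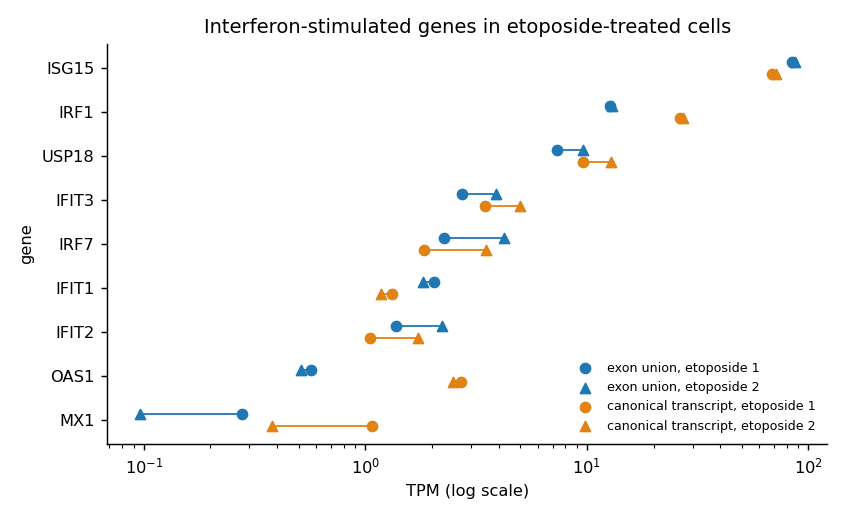
Levels of the 9 interferon-stimulated genes in the 2 etoposide libraries, in TPM on a log axis, with blue for the exon union and orange for the canonical transcript as gene length. Circles are replicate 1 and triangles replicate 2. ISG15 lies highest under either length, and OAS1 moves most between the 2 lengths. MX1 has the lowest mean under either length but overlaps IFIT2 with the canonical transcript.

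The order below IFIT3 depended on the gene length used. GENCODE lists exons of 17984, 13021 and 12265 bases in all for MX1, OAS1 and IRF1, against canonical transcripts of 2776, 1631 and 3554 bases. With the canonical transcript, an alternative added after seeing the data, ISG15 had a mean of 70.0 TPM, IRF1 26.7, USP18 11.2, IFIT3 4.23, IRF7 2.67, OAS1 2.59, IFIT2 1.38, IFIT1 1.25 and MX1 0.724 TPM. With the exon union the means of OAS1 and MX1 were 0.539 and 0.186 TPM. By mean, ISG15, IRF1, USP18 and IFIT3 kept the first 4 places and MX1 the last. IFIT3 and IRF7 overlapped between libraries under either length, as did IFIT1 and IFIT2. With the canonical length alone, OAS1 and IRF7 overlapped, and so did MX1 and IFIT2. In etoposide replicate 1, MX1 was above IFIT2 with that length, at 1.07 against 1.05 TPM.

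The rest of the pathway was read from lists grouped by role, in the etoposide libraries. None of these genes lies among the 220 genes of all 6 libraries, so none could be tested in either direction. The interferon genes themselves were at or near 0. Of 10 ligand genes, IFNB1, IFNA1, IFNA2, IFNW1, IFNG, IFNL1, IFNL2 and IFNL3 had 0 counts in both libraries. The exact 95% Poisson interval of 0 counts reaches up to 0.172 and 0.259 CPM in the 2 libraries. IFNE had 4 and 2 counts and IFNK had 1 and 2. Interferon-inducible chemokines were also scarce, with 4 and 2 counts of CXCL10, 4 and 1 of CXCL11 and 2 and 0 of CXCL9. CXCL8 and CCL2, which respond to inflammatory signals more broadly, had 47.3 and 16.2 TPM, and CCL5 had 28 and 6 counts.

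Of 15 sensors and adaptors, 12 had at least 10 counts in both libraries. The adaptors TICAM1 and MAVS had 41.3 and 24.0 TPM, and CGAS, the sensor of DNA in the cytosol, had 697 and 400 counts and a mean of 25.2 TPM. STING1, the adaptor downstream of CGAS, had 108 and 92 counts and 4.17 TPM. ZBP1 had 1 and 0 counts. AIM2 was at 0 counts in both libraries, and so was TREX1, whose exons are overlapped wholly by those of ATRIP on the same strand, so its 0 says nothing about its level.

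All 12 genes of the receptors and the JAK-STAT relay had at least 10 counts in both libraries, with a median of 17.5 TPM. IFNGR2, TYK2 and IFNGR1 were highest, at 71.5, 47.0 and 41.4 TPM. Of the factors that bind the ISRE, STAT2 had 16.4 and IRF9 had 0.730 TPM. IRF9 had 22 and 24 counts, and another gene on the same strand overlaps 23.9% of its exon bases. The lowest were IL10RB and IFNAR2, at 0.719 and 0.467 TPM, which share exons with the readthrough gene IFNAR2-IL10RB. The list of IRF genes also held IRF2BP1 and IRF2BP2, corepressors that bind IRF2 and are not IRFs themselves, at 72.8 and 44.5 TPM. The highest of the IRFs was IRF3 at 50.1 TPM, and IRF4 had 0 counts in both libraries.

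The feedback inhibitors had a median of 24.1 TPM, led by PTPN11, SOCS1 and PTPN2 at 89.7, 36.6 and 25.3 TPM, with PTPN6 lowest at 0.909 TPM. Of 30 other antiviral effectors, 24 had at least 10 counts in both libraries, and the median was 6.80 TPM. ADAR, IFITM3 and IFI6 led this list at 107, 99.3 and 78.2 TPM, so 2 of the 30 exceeded ISG15. At its lower end, IFITM1 had 2 and 0 counts and XAF1 had 2 and 2. Genes on the same strand overlap 21.1% of the IFITM1 and 23.1% of the IFI6 exon bases. A gene on the opposite strand overlaps 38.3% of those of XAF1, so the counts of these genes are less certain. Antigen presentation was the most abundant list, with a median of 48.8 TPM, and B2M, HLA-C and HLA-B reached 524, 393 and 194 TPM. PSMB10 and NLRC5 were its lowest, at 14.3 and 4.95 TPM. Another gene on the same strand overlaps 39.4% of the PSMB10 exon bases. The HLA genes are near-identical to each other in part and the counting may have split their reads.

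**Figure D5:**
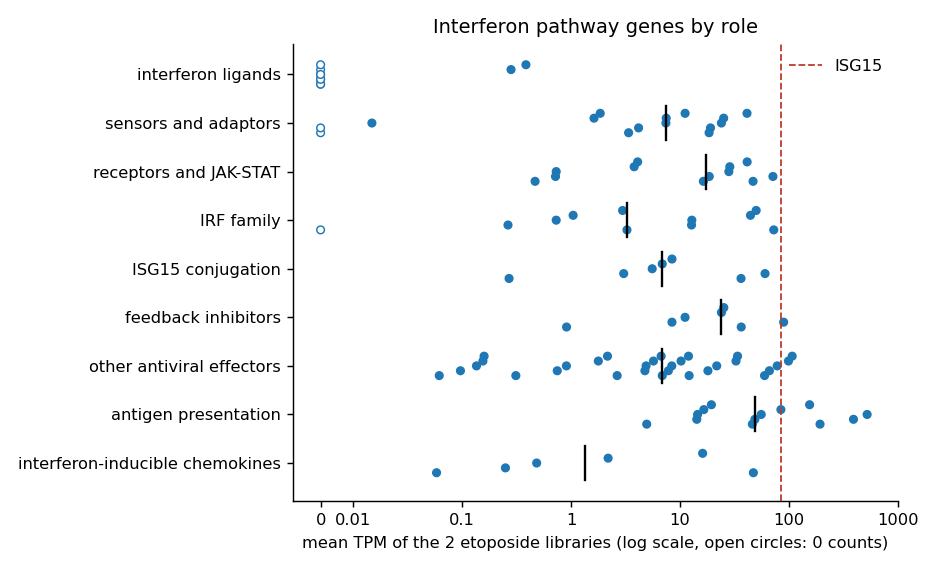
Interferon pathway genes by role, as the mean TPM of the 2 etoposide libraries on a log axis. Each circle is a gene, open circles have 0 counts in both libraries, black bars are list medians above 0, the dashed line is ISG15, and the IRF row includes the corepressors IRF2BP1 and IRF2BP2. Ligands lie at the left edge, while 4 antigen presentation genes, 2 antiviral effectors and PTPN11 lie beyond ISG15.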

How the data were processed

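The authors aligned paired-end reads of poly-A RNA to GRCh38 with HISAT2 2.1.0, counted them per Ensembl gene with featureCounts (Subread 2.0.0) and deposited raw counts, 1 whole number per gene and library, without normalization. The study tested them with DESeq2 1.30.1. Strand and multi-mapping options and the annotation release are not given in the sources used here. Symbols, coordinates and lengths are from GENCODE 44, which has 60357 of the 67140 identifiers. The other identifiers held 0.0411% and 0.0445% of the etoposide counts. The incomplete last line of each control and adriamycin table was left out.

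The 220 shared genes were fitted in 1 model of all 6 libraries with edgeR 4.0.16 (R 4.3.3), TMM scaling, filterByExpr, the quasi-likelihood test and Benjamini-Hochberg adjustment over 94 genes. The coefficient of variation between libraries, which edgeR terms biological though the spread may be technical, was 7.51%. Standard errors were derived from the log2 fold change and the F statistic. To obtain normalized counts, each count was scaled by its library's TMM-adjusted size over the geometric mean of those sizes. In etoposide libraries, CPM used the library total and TPM the exon union, with exact 95% Poisson intervals. Tables used Python 3.11.15. The calls were tested on simulated data of etoposide against control with log2 fold changes of 2, where 93.9% of the changed genes were recovered. Changes as small as those of ISG15 were not simulated.

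The alternatives changed the scaling (size factors of DESeq2, upper quartile, or none beyond library size), the test (Wald, DESeq2 1.42.0), the filter (any gene with 1 count, or 10 counts or more per library), the libraries fitted (the 4 of a comparison, or all but 1), the block (replicate number) and the threshold (adjusted p under 0.05 at any fold). The genes and lists were chosen with earlier results of these data known. Named genes were the 9 members, the 3 highest and 2 lowest of each list by TPM, those at 0 in both libraries, the 5 genes nearest ISG15 in pattern and its tested neighbours. UBA7, STING1, ZBP1, CXCL10, STAT2, IRF9, IFIT5, HES4, OAS2, OAS3, OASL, MX2 and EPCAM were named after their values were seen. Some genes that the rule covers are not reported here. The motifs were also chosen after seeing the promoters.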

Additional observations from a re-analysis of the deposited data

How the results depend on the processing

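ISG15 kept its sign against control under all 15 alternatives in both comparisons, and no alternative that kept the fold threshold called it. Its log2 fold change ranged from 0.41 to 0.71 with etoposide (0.41 to 0.54 when 1 library was left out) and from 0.39 to 0.80 with adriamycin (0.57 to 0.70). Its edgeR or DESeq2 adjusted p was under 0.05 in 12 of 15 and 15 of 15 alternatives. Under the looser rule, an adjusted p under 0.05 in place of 0.01 and no fold threshold, the values of 0.48 and 0.60 passed. Between the drugs it ranged from −0.29 to 0.21 (0.068 to 0.21 when 1 library was left out), and library size alone, which moved all genes alike, reversed it to −0.29. Relative to the median of the tested genes it was 0.19 under all 4 scalings.

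Counts of genes called moved more, and the cause was not tested. Etoposide against control gave 2 higher and 3 lower genes. These became 11 and 20 under the looser rule, which changed both thresholds, 1 higher gene under a filter of 10 counts per library, and 0 to 2 and 0 to 3 when 1 library was left out. Adriamycin against control gave 1 higher and 7 lower genes. These became 21 and 24 under the looser rule and 0 to 2 and 5 to 7 when 1 library was left out, and the higher count was 2 with DESeq2's size factors or its Wald test, 4 with upper-quartile scaling, and 0 with library size alone or only the 4 libraries compared. Adriamycin against etoposide gave 2 higher and 10 lower genes. These became 22 and 24 under the looser rule, 1 and 21 with library size alone, 1 and 5 under the filter of 10 counts per library, and 1 to 3 and 2 to 10 when 1 library was left out. The higher count was 1 with upper-quartile scaling, with no filter beyond 1 count and with only the 4 libraries.

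Samples with the same replicate number did not deviate together (correlations of −0.070, 0.037 and −0.010 over 75 genes), so the numbers were not taken to pair them. With the replicate block ISG15 had log2 fold changes of 0.48, 0.60 and 0.12, and the counts of calls were the same. Among the etoposide levels, 7 of 9 moved by over 1 SD with the canonical transcript length, 5 of 9 with the longest transcript and none with TMM. MX1 had 0.096 TPM without etoposide replicate 1 and 0.277 TPM without replicate 2, against a mean of 0.186. MX1, with 7 counts in one library, was the level most limited by depth.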
